A study of Mus musculus with 21 samples.

Results

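Young mouse brain microglia whose libraries are labelled Trem1-/- were compared with young wild type, 3 libraries against 3. These are 6 of the 21 samples of a series on Trem1 in microglia during aging and in the 5XFAD Alzheimer model. They were taken by their labels, which read young and Trem1-/- or young and wild type, and by the matching columns of the deposited aging table. That table also holds 3 aged wild-type and 3 aged libraries labelled Trem1-/-, which share the fit and are used here for the spread and for the test of whether the young difference recurs with age. All groups are primary brain microglia, with age given as a word and not in months. The sources do not describe how the cells were isolated or sorted, which stretch of Trem1 is missing, or whether each library is a separate mouse. The p-values therefore measure the spread between these samples, which may be partly technical.

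Trem1 is a receptor of the immunoglobulin superfamily on neutrophils and monocytes. It has no signalling motif of its own and works through the adaptor DAP12, encoded by Tyrobp, which recruits the kinase Syk and strengthens the response to Toll-like receptor ligands. Microglia, the resident macrophages of the brain parenchyma, use the same adaptor mainly with the related receptor Trem2. Blood monocytes and neutrophils are sparse in the healthy brain and lie mostly in its vessels and borders, so their transcripts in a microglial preparation can come from other cells as well as from microglia. In bulk RNA, more cells of a type and more RNA per cell cannot be told apart.

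The young libraries held 11939584 to 16012260 reads on genes, and 3 reads, the limit that a count of 0 allows, came to 2.55 to 3.28 normalized counts. That limit covers counting error only. Homeostatic microglial genes made up a summed level of 633408 to 711472 normalized counts in wild type and 599840 to 625048 in the libraries labelled Trem1-/-. They were abundant in all 6. The Y-linked gene Ddx3y was between 1023 and 1455, and all 6 libraries read as male. Of 13 T and NK cell markers, Cd3e, Cd3g, Trac and Trbc2 were at 0 in all 6. The whole list summed to 495 to 692 in wild type and 330 to 426 in the libraries labelled Trem1-/-. Its member Il7r was at 446, 604 and 647 in wild type and 300, 410 and 316 in the libraries labelled Trem1-/-. B cell markers summed to 3086 to 3319 and 2429 to 2967, so lymphocyte-associated transcripts were not absent. Classical monocyte markers summed to 3837 to 8411 in wild type and 21101 to 63734 in the libraries labelled Trem1-/-, and mature neutrophil markers to 17713 to 26471 and 39323 to 78287. Both ranges lie apart between the groups and accompany every result below; their part in those results was not tested.

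Trem1 itself went against the label. It lies on chromosome 17 at chr17:48232768-48246924 on the plus strand (GRCm38, ENSMUSG00000042265.13). The normalized counts were 25.2, 7.65 and 8.74 in the wild-type libraries and 89.4, 99.8 and 89.5 in those labelled Trem1-/-, from 27, 7 and 10 reads and 105, 103 and 85 reads. Every library labelled Trem1-/- was above every wild-type library, and wild-type replicate 1 was the highest of its group. The log2 difference was 2.85 ± 0.45 (SE, adjusted p = 6.2e-04), and it lay between 2.55 and 3.35 when each library in turn was left out. Reads that map outside a deleted stretch would still be counted for this gene, and the values hold no counts per exon. Whether such reads or the marker levels given above have a part in this difference was not tested. The directions below are therefore those of the library labelled Trem1-/- against the library labelled wild type.

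**Figure D1:**
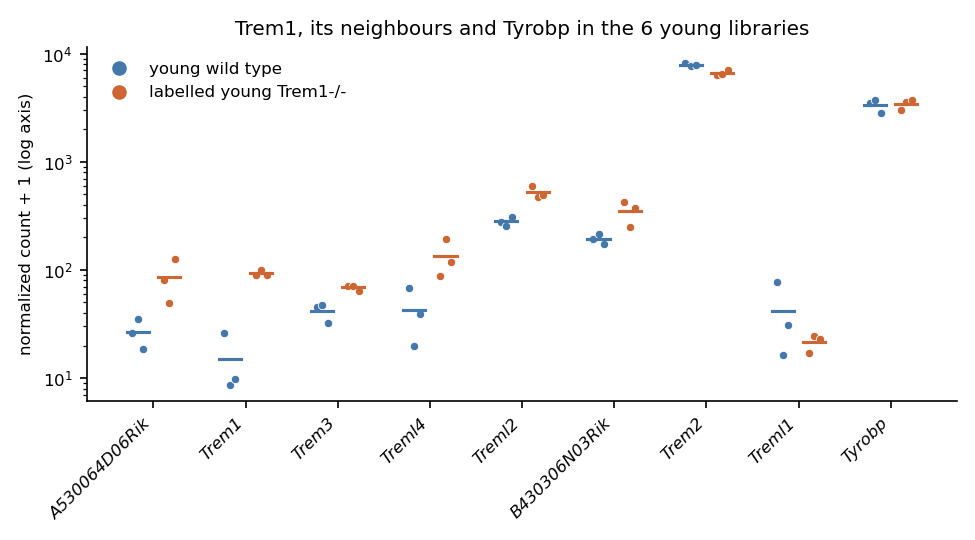
Normalized count + 1 (log axis) of Trem1, its neighbours on chromosome 17 and Tyrobp in each of the 6 young libraries; points are libraries and bars are group means. The 3 libraries labelled Trem1-/- sit between 89.4 and 99.8 for Trem1, above the wild-type libraries, which reach 25.2.

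Of the other receptors in the Trem cluster, none passed the test. Treml4, a receptor expressed on myeloid cells, differed by 1.75 ± 0.49 (adjusted p = 0.0552) and Treml2 by 0.89 ± 0.25 (adjusted p = 0.0663). Trem3, a gene adjacent to Trem1, differed by 0.74 ± 0.51 (adjusted p = 0.656), and Trem2, the lipid-sensing receptor of microglia, by -0.26 ± 0.11 (adjusted p = 0.288). B430306N03Rik, an uncharacterised gene of the cluster, differed by 0.82 ± 0.24 (adjusted p = 0.0663). For Trem3, Treml4, Treml2 and B430306N03Rik the libraries labelled Trem1-/- were above wild type without overlap, as were 11.3% of all genes tested. The adaptor gene Tyrobp was close in both groups, with 3494, 3748 and 2795 normalized counts in wild type and 2997, 3560.2 and 3730.1 in the libraries labelled Trem1-/- (log2 difference 0.04 ± 0.13, adjusted p = 0.96). Of the 16 tested genes of TREM receptors and DAP12 signalling, Trem1 was the only one that passed in this fit, with a median of -0.03, against 2.58% of all tested genes. DESeq2 passed 3 of the 16 and a fit to the young libraries alone 4. Within 5 Mb of Trem1, 92 genes were tested and 4 passed (4.35%). The other 3 were Pla2g7, which encodes a secreted phospholipase that hydrolyses platelet-activating factor (2.76 ± 0.41), Ccnd3, a D-type cyclin (0.75 ± 0.16), and A530064D06Rik, an uncharacterised gene beside the cluster (1.63 ± 0.44). The call for Ccnd3 ended without wild-type replicate 1 or without replicate 2 or 3 labelled Trem1-/-. That for A530064D06Rik ended without any library but replicate 2 labelled Trem1-/-, and also with a replicate block, with no filter on level and in a fit to the young libraries alone. The count of 4 was 2 without replicate 3 labelled Trem1-/- or without trend and robust steps and 7 in DESeq2.

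Across the transcriptome, most of the genes that passed were higher in the libraries labelled Trem1-/-. Of 16086 genes tested, 415 passed at an adjusted p under 0.05 (2.58%), with 379 higher (2.36%) and 36 lower (0.224%). The median difference over all tested genes was -0.01 and 49.1% of them were above 0. The rises were large and started from low levels: the median rise was 1.68 on the log2 scale, 283 genes rose at least 2-fold and 144 at least 4-fold, and the median normalized count of these genes was 137 in wild type and 454 in the libraries labelled Trem1-/-. The falls were smaller and at higher levels, with a median size of 0.65 and a median level of 1798 in wild type and 1222 in the other group. The groups did not overlap for 410 of the 415 genes, against 20.4% of all tested genes. Genes chosen by their difference between these same libraries tend to separate, so this count adds no further support. Of the 379, 157 kept their call with each of the 6 libraries left out in turn, and of the 36, 5 did. The total fell to 234 without wild-type replicate 2, to 259 without wild-type replicate 3, and to 223 and 226 without replicates 2 and 3 labelled Trem1-/-. Without the mean-variance trend and the robust step of limma it was 97, and DESeq2 on the recovered reads called 648. Wild-type replicate 1 was the highest of its group for 227 of the 379 genes that rose, and replicate 3 labelled Trem1-/- for 185. Counts of rises and falls in the lists below stand beside these shares, 2.36% higher and 0.224% lower over all genes tested. Genes named below kept their call with each of the 6 libraries left out unless the text says otherwise. Of the named calls other than Trem1, 33 of 105 remained without trend and robust steps; those in the text include Ly6c2, Hp, Gda, Cxcr2, Hdc, Oasl2, Oas3, Cmpk2, Ifi207, Mndal, Slfn2, Ifitm2, S100a11, Lgals3, Cd44, Cfp, Msr1, Clec4e, Bcl3, Pla2g7, Tagln2 and Sorl1. Without these steps no call was left among the genes listed below for mitosis, DNA replication, immediate early response, heat shock, chemokines, Toll-like receptors, GTPases, the pentose phosphate pathway, ribosomal proteins, lysosomes, both MHC classes and dendritic cells, or among the falls of the homeostatic and splicing lists. There was 1 call each for primary granules, Ifitm, NF-kB, scavenger receptors, lectins, S100, disease-associated genes and glycolysis, and 2 for Schlafen genes.

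**Figure D2:**
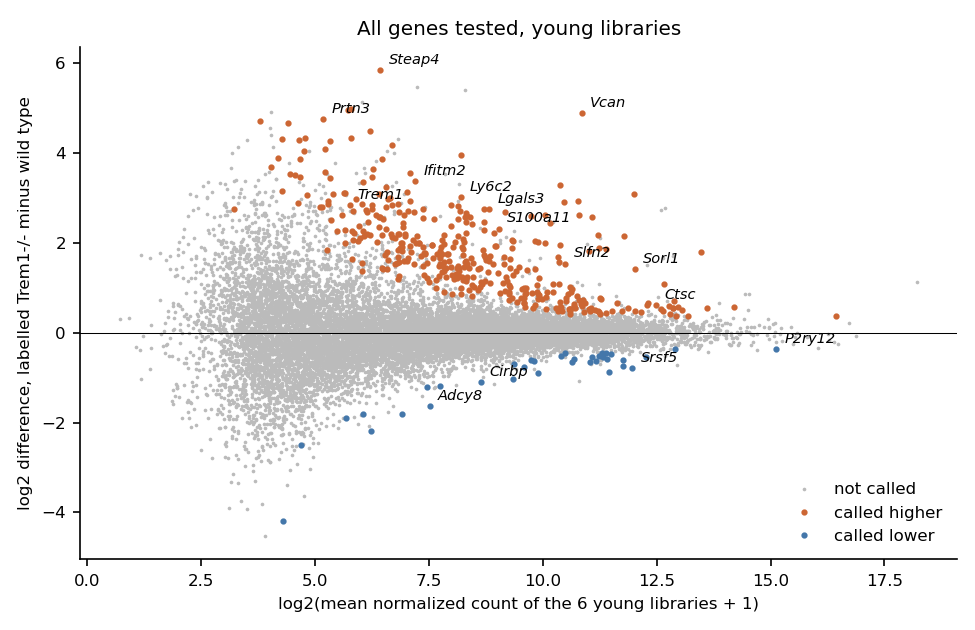
Log2 difference (labelled young Trem1-/- minus young wild type) against the log2 mean level of the 6 young libraries for the 16086 genes tested. Orange points are the 379 genes that passed upward, blue points the 36 that passed downward and grey points the rest.

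Markers of classical monocytes, the Ly6c-positive blood cells that enter inflamed tissue, were higher in the libraries labelled Trem1-/-. Of 14 tested, 8 rose, with a median of 2.86 over the 14, and the groups did not overlap for any of the 14, as for 20.4% of all genes tested. The surface antigen Ly6c2 was at 86.8, 53.6 and 51.5 in wild type and 379, 497 and 715 in the libraries labelled Trem1-/-, a log2 difference of 3.02 ± 0.35 (SE, adjusted p = 1.0e-04). Levels after "at" are normalized counts of replicates 1, 2 and 3 of wild type and then, after "against", of the libraries labelled Trem1-/-; values with ± are log2 differences with their SE. Hp, the haemoglobin-binding plasma protein haptoglobin, was at 434, 283 and 204 against 1733, 1686 and 2075 and rose by 2.63 ± 0.31 (SE, adjusted p = 0.0016). Both genes were lowest in wild-type replicate 3 and highest in replicate 3 labelled Trem1-/-. Gda, the purine enzyme guanine deaminase, rose by 2.91 ± 0.39. Vcan, the matrix proteoglycan versican, had among the largest differences, with 225, 120.3 and 39.3 against 1327, 4360.1 and 5085 normalized counts (4.90 ± 0.84, adjusted p = 0.0203). Replicates 2 and 3 labelled Trem1-/- held over 3 times the Vcan level of replicate 1, and the call ended without wild-type replicate 2 or 3, without either of those 2 libraries, in a fit to the young libraries alone and with a replicate block. Chil3, a chitinase-like secreted protein, rose by 2.94 ± 0.47, a call that ended without wild-type replicate 2 or 3 or replicate 1 or 2 labelled Trem1-/-. Ccr2, the receptor that guides monocytes out of the marrow, missed the threshold and is named after its value was seen (2.47 ± 0.55, adjusted p = 0.0638). The count of 8 was 11 and 12 without replicate 1 of either group, and fell to 3 without wild-type replicate 2, 4 without wild-type replicate 3, and 3 and 4 without replicates 2 and 3 labelled Trem1-/-. edgeR called all 14 and DESeq2 13.

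Neutrophil markers were higher as well, in a different order of libraries. Of 16 tested, 8 rose, against 2.36% of all genes tested, with a median of 1.62 over the 16. The groups did not overlap for 14 of the 16, as for 20.4% of all genes tested. Cxcr2, the chemokine receptor that draws neutrophils to tissue, was at 98.9, 189 and 148 in wild type and 694, 629.5 and 768 in the libraries labelled Trem1-/- (2.30 ± 0.31, adjusted p = 0.0013). Hdc, the enzyme that makes histamine, was at 92.4, 49.2 and 73.4 against 479, 510.4 and 496 and rose by 2.82 ± 0.42. The secreted protein Retnlg rose by 1.42 ± 0.26 and the decoy interleukin-1 receptor Il1r2 by 2.15 ± 0.44. For Cxcr2, Hdc and Retnlg the 3 libraries labelled Trem1-/- lay close together. By contrast the summed neutrophil level was 78287 in replicate 1 labelled Trem1-/- and 40014 and 39323 in replicates 2 and 3, while the summed monocyte level was 21101 in replicate 1 and 49621 and 63734 in the other two. The neutrophil count was 4 to 6 with 1 library left out, lowest without wild-type replicate 3 or replicate 1 labelled Trem1-/- (4 each), 5 without replicate 2 of either group, 13 in edgeR and 2 without trend and robust steps.

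Genes of primary granules and myeloid precursors gave 2 calls among 11 tested (18.2%, against 2.36% of all genes tested), with a median of 2.45. Prtn3, the granule protease proteinase 3, was at 13.1, 0 and 0 in wild type and 58.7, 91 and 50.6 in the libraries labelled Trem1-/- (4.77 ± 0.81, adjusted p = 0.0013). Mgst1, a microsomal glutathione transferase, was at 56, 18.6 and 43.7 against 156, 233 and 221 (2.45 ± 0.36). Elane and Mpo, the granule protease and peroxidase, were chosen after their values were seen and missed the threshold: Elane was at 29.9, 0 and 0 against 195, 89.1 and 75.8, and Mpo at 29.9, 0 and 6.11 against 464, 206 and 198 normalized counts. Their wild-type reads lay mostly in replicate 1, with 1 or both of the other wild-type libraries at 0. Without wild-type replicate 1 the list gave 4 calls, as it did in DESeq2.

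**Figure D3:**
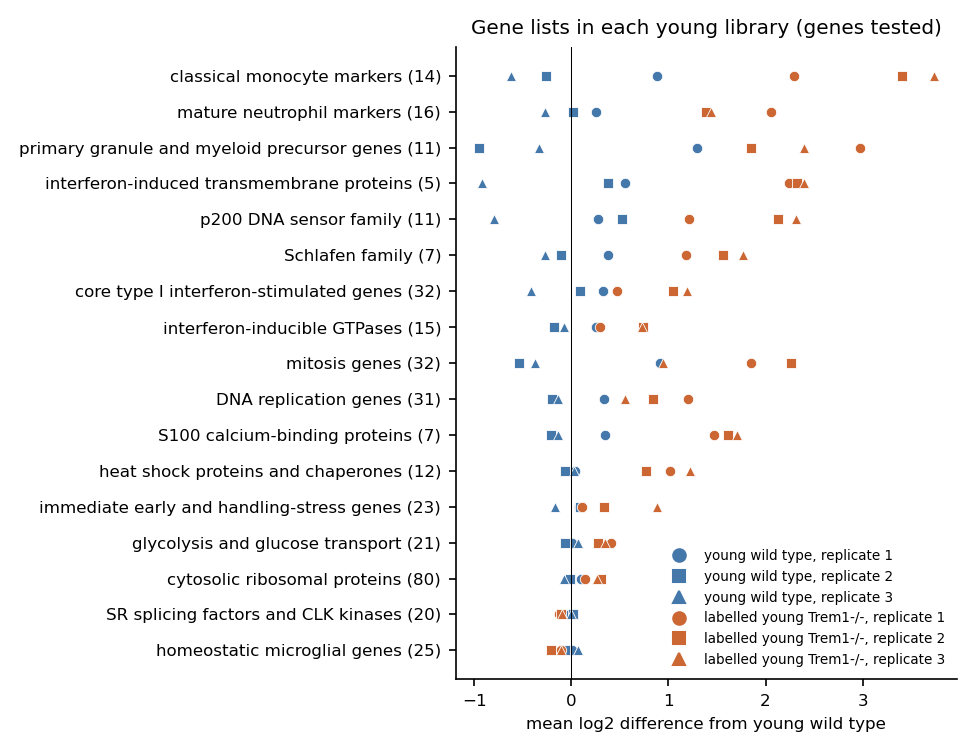
Mean log2 difference from the young wild-type mean over the tested genes of a list, one point per young library, with the number of genes in brackets. Monocyte markers lie at 2.30, 3.41 and 3.74 in the libraries labelled Trem1-/- and at 0.89, -0.26 and -0.62 in wild type; mitosis genes in wild-type replicate 1 (0.91) lie close to replicate 3 labelled Trem1-/- (0.94).

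Interferon-stimulated genes respond to type I interferon through the factor ISGF3, which binds a promoter element called the interferon-stimulated response element (ISRE). Several of their families rose, although the core list did so in part only. Of 32 core type I interferon-stimulated genes, 7 rose and none fell, with a median of 0.60 and 28 of 32 above 0. By family, 7 of 11 tested p200 genes rose (median 1.99), as did 3 of 5 interferon-induced transmembrane (Ifitm) genes (2.42), 4 of 7 Schlafen genes (1.54) and 2 of 15 interferon-inducible GTPases (0.52). Without trend and robust steps the Ifitm count was 1 and the Schlafen count 2. The background is 2.36% of all genes tested, and some lists share members. The p200 proteins are DNA sensors and transcriptional regulators encoded in 1 cluster on chromosome 1.

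The promoters of the p200 genes are shown because 7 of its 11 tested members rose and because most of its members carry the ISRE core. The core searched was GAAA, any 2 bases and GAAA again, on both strands, in windows of 300 bases, 250 before and 50 after each start site, from RefSeq (GRCm38.p6). It occurred in 3.44% of 32851 windows, in 10 of 13 windows of p200 genes (76.9%), in 14 of 25 windows of core interferon-stimulated genes (56.0%) and in 9 of 11 windows of interferon-inducible GTPases (81.8%). The share was 3.21% of the windows of genes tested and 7.69% of the windows of all genes called higher. The core occurred in 6 of 8 windows of the p200 genes that rose and in 2 of 4 of the core genes that rose. The windows of Ifi209, Oasl2 and Cmpk2, which rose, held no match, nor did 1 of 2 windows of Ifi203, and only stretches with a match are shown. A match describes the letters and does not show that a factor binds. The stretches below run from 80 bases before to 10 bases after the start site, 5′ to 3′ on the gene's strand, with the core in capitals. All lie on the minus strand, at chr1:173741800-173741889, chr1:173880178-173880267, chr1:173913037-173913126, chr1:173491309-173491398, chr1:173942483-173942572 and chr5:120777650-120777739 in the order shown.
Ifi207: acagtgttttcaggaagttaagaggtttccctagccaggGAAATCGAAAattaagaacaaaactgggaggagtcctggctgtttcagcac
Mndal: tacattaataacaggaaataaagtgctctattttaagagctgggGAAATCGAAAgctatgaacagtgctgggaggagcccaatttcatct
Ifi211: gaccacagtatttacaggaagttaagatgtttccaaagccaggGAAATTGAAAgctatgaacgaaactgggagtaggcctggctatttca
Ifi206: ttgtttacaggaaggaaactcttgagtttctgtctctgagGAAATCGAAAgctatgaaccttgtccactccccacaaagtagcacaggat
Ifi203: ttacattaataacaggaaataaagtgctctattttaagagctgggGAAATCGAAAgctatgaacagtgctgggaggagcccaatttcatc
Oas3: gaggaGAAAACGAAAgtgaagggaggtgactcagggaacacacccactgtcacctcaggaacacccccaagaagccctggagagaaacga
The first base of the core lay 41, 36, 37, 40 and 35 bases before the start site in the 5 p200 genes and 75 bases before it in Oas3. The Mndal and Ifi203 stretches share 89 of 90 bases. These stretches lie mostly before the start site, and how alike the transcripts are was not measured. Where transcripts of related genes are near-identical, the counting can split reads between them. To that extent, levels of single members of the p200, Ifitm, Schlafen, Oas and Ly6 families are uncertain.

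Ifi207 had the smallest p of the p200 genes, with 118, 87.5 and 61.1 normalized counts in wild type and 311, 668 and 709 in the libraries labelled Trem1-/- (2.61 ± 0.29, adjusted p = 2.6e-05). Ifi204, which takes part in sensing of cytosolic DNA, was at 204, 286 and 147 against 446, 799 and 868 and rose by 1.72 ± 0.27. Mndal was at 42, 20.8 and 15.7 against 88.5, 168 and 205 (2.55 ± 0.45), and Ifi211 at 24.3, 17.5 and 16.6 against 44.3, 237 and 279 (2.84 ± 0.54). In all 4 genes replicate 1 labelled Trem1-/- was the lowest of its group and replicates 2 and 3 were close together, the same order as in the summed monocyte markers. That order was not particular to monocyte markers. By the mean of their members, the Schlafen, adhesion and C-type lectin lists had it too, and the neutrophil and mitosis lists did not. The p200 count was 4 without replicate 2 labelled Trem1-/-, 5 to 7 with any other library left out, and 3 without trend and robust steps.

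Oas3 and Oasl2, antiviral genes of the oligoadenylate synthetase family, rose by 2.75 ± 0.42 and 1.86 ± 0.26. Oas3 was at 52.2, 61.2 and 19.2 in wild type and 170.2, 317 and 373 in the libraries labelled Trem1-/-, and Oasl2 at 155, 148 and 89.1 against 325, 511 and 594. Cmpk2, a mitochondrial nucleotide kinase induced by interferon, was at 12.1, 19.7 and 26.2 against 86.8, 58.1 and 141 (2.21 ± 0.42). Oas2 rose by 2.19 ± 0.43, a call that ended without replicate 2 labelled Trem1-/-. Other well-known members, named after their values were seen, missed the threshold: Irf7, the factor that amplifies the interferon response, differed by 0.85 ± 0.27 (adjusted p = 0.112), the ubiquitin-like Isg15 by 2.49 ± 0.78 (adjusted p = 0.108), and Ifit1, which binds foreign RNA ends, by 1.01 ± 0.48 (adjusted p = 0.412). The core count of 7 was 3 without replicate 2 labelled Trem1-/-, 4 without replicate 3 labelled Trem1-/- or wild-type replicate 2, and 3 without trend and robust steps.

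Ifitm2 and Slfn2 were among the genes with the smallest p of the whole comparison. Ifitm proteins restrict virus entry at membranes, and Ifitm2 was at 29.9, 19.7 and 25.3 in wild type and 214, 301 and 285 in the libraries labelled Trem1-/- (3.37 ± 0.35, adjusted p = 4.8e-06). Ifitm3 was at 139, 143 and 56.8 against 375, 640.2 and 736 (2.42 ± 0.41), with wild-type replicate 3 below the other two. Slfn2, a Schlafen protein known for its role in T cell quiescence, was at 888, 693 and 639 against 1909.7, 2007 and 2533 (1.54 ± 0.15, adjusted p = 4.8e-06). Neither Ifitm2 nor Slfn2 overlapped between the groups, as for 410 of the 415 genes that passed. Slfn4, known from myeloid cells, rose by 2.46 ± 0.40, a call that ended without wild-type replicate 2. Without wild-type replicate 2, replicate 2 labelled Trem1-/- or replicate 3 labelled Trem1-/-, the Schlafen count was 2, as it was with no filter on level. Among the GTPases, which attack the vacuoles of intracellular pathogens, Gbp7 rose by 0.97 ± 0.18. Gbp2 rose by 1.28 ± 0.33, a call that ended without wild-type replicate 2 or 3 or replicate 2 or 3 labelled Trem1-/-. The GTPase count was 1 without any of those 4 libraries and 0 without trend and robust steps.

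**Figure D4:**
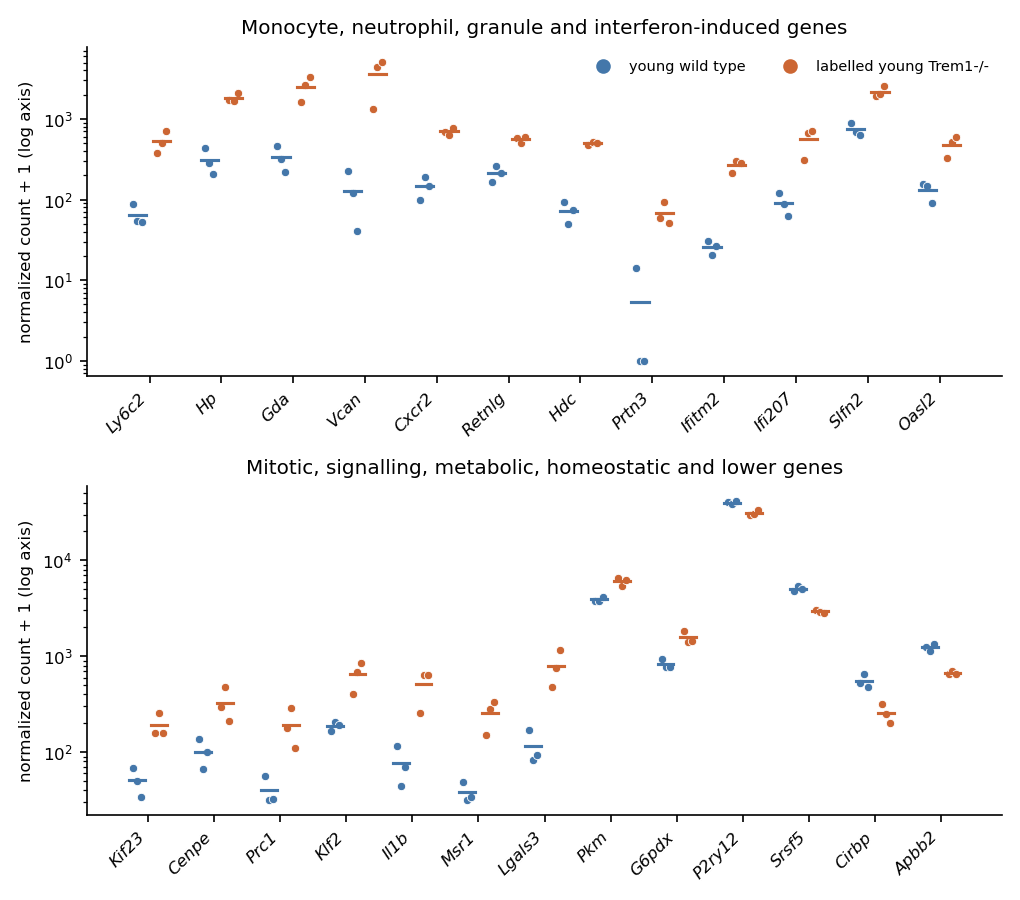
Normalized count + 1 (log axis) in each of the 6 young libraries for genes described here; points are libraries and bars are group means. For Ly6c2, Ifitm2, Slfn2 and Lgals3 every library labelled Trem1-/- lies above every wild-type library, and for Srsf5 and Apbb2 below.

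Genes of mitosis, which are transcribed in G2 and M phase, were higher in the libraries labelled Trem1-/- but uneven within both groups. Of 32 tested, 11 rose, with a median of 1.71, and all 32 differences were above 0, against 49.1% of all genes. Kif23, the kinesin of the central spindle, was at 68.1, 49.2 and 33.2 in wild type and 157, 253 and 157 in the libraries labelled Trem1-/- (1.91 ± 0.35, adjusted p = 0.0023). Cenpe, a kinetochore kinesin, was at 135, 65.6 and 99.6 against 295, 475 and 209.6 (1.67 ± 0.31), and the cytokinesis scaffold Anln at 55, 37.2 and 21 against 147, 188 and 162 (2.20 ± 0.45). Prc1, which bundles microtubules in the midzone, was at 56, 30.6 and 31.4 against 178, 286 and 109.6 (2.20 ± 0.43), and its call ended without replicate 2 labelled Trem1-/-. Replicate 2 labelled Trem1-/- was the highest library for all 4. Top2a and Mki67, common marks of dividing cells named after their values were seen, missed the threshold. Mki67 differed by 1.99 ± 0.58 (adjusted p = 0.165). Top2a differed by 2.06 ± 0.83 (adjusted p = 0.368) and overlapped between the groups, with 447 in wild-type replicate 1 and 433 in replicate 3 labelled Trem1-/-. The count of 11 was 3 without replicate 2 labelled Trem1-/-, 4 without replicate 1 labelled Trem1-/-, 5 and 6 without wild-type replicates 2 and 3, 15 without wild-type replicate 1, and 0 without trend and robust steps. Of 31 DNA replication genes, 2 rose, E2f8 (1.69 ± 0.40) and Mcm10 (2.81 ± 0.75), with a median of 0.64. The calls for E2f8 and Mcm10 both ended without wild-type replicate 2 or 3 or replicate 2 or 3 labelled Trem1-/-, and that for Mcm10 also without replicate 1 labelled Trem1-/- and in edgeR.

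Many mitotic promoters carry the cell cycle genes homology region (CHR), TTTGAA, bound by the DREAM and MMB complexes. In the same windows and on both strands it occurred in 24 of 29 windows of mitosis genes (82.8%) and in 9 of 11 windows of those that rose. It occurred in 17.9% of all windows and in 12.4% of the windows of genes tested. Among windows of all genes called higher it occurred in 14.8%, and the ISRE core in 1 of the 29 mitosis windows. Stretches from 60 bases before to 30 bases after the start site are shown for Kif23 and Prc1, described above, and for Hmmr and Kif11, 2 more members that rose, all 4 chosen for a match, with the element in capitals. They lie at chr9:61946770-61946859 (minus strand), chr7:80294391-80294480 (plus), chr11:40733408-40733497 (minus) and chr19:37376322-37376411 (plus).
Kif23: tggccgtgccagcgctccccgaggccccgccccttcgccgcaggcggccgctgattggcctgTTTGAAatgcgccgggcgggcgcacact
Prc1: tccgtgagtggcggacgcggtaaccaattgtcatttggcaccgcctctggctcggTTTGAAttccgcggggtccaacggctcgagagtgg
Hmmr: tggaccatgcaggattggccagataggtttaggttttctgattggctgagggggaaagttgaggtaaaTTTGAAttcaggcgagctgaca
Kif11: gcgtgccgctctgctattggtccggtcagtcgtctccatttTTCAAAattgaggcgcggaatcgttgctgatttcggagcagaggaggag
In Kif11 the match is on the opposite strand and reads TTCAAA. The other 3 read TTTGAA on the gene's strand.

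Immediate early genes are induced within minutes by stimulation and by tissue handling. Of 23 tested, 4 rose (17.4%, against 2.36% of all genes tested), with a median of 0.27. Klf2, a Kruppel-like factor of quiescent myeloid and endothelial cells, was at 166, 204 and 189.6 in wild type and 403, 687 and 849 in the libraries labelled Trem1-/- (1.72 ± 0.29, adjusted p = 0.0018). Ier2 rose by 1.44 ± 0.29, a call that ended without replicate 3 labelled Trem1-/-. Klf4 (1.21 ± 0.30) and the phosphatase gene Dusp1 (2.03 ± 0.44) also rose. The call for Klf4 ended without wild-type replicate 2 or 3 or replicate 2 or 3 labelled Trem1-/-, and that for Dusp1 without wild-type replicate 1 or 3, without replicate 2 or 3 labelled Trem1-/- and with a replicate block. The classical members Egr1 and Jun, named after their values were seen, were not higher: Egr1 differed by -0.35 ± 0.38 (adjusted p = 0.827) and Jun by -0.33 ± 0.25 (adjusted p = 0.71). The count of 4 was 1 without replicate 3 labelled Trem1-/-, 2 without replicate 2 labelled Trem1-/- or wild-type replicate 3, and 0 without trend and robust steps.

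Heat shock proteins and chaperones gave 1 call among 12, although all 12 differences were above 0 with a median of 0.75 and 9 did not overlap between the groups. Over all genes tested, 2.36% rose, 49.1% were above 0 and 20.4% did not overlap. The inducible chaperone Hspa1a was at 14, 36.1 and 11.4 in wild type and 64.7, 106 and 332 in the libraries labelled Trem1-/- (2.80 ± 0.66). Replicate 3 labelled Trem1-/- was highest, and the call ended without it, without replicate 2 labelled Trem1-/- or without wild-type replicate 1 or 3. edgeR called 6 of the 12 and DESeq2 4.

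Inflammatory signalling genes showed few rises. Of 18 genes of NF-kB signalling and cytokines, 2 rose (median 0.03). Il1b, which encodes interleukin-1 beta, was at 115, 43.7 and 69 in wild type and 255, 629.5 and 638 in the libraries labelled Trem1-/- (2.72 ± 0.45, adjusted p = 0.0045). Bcl3, a nuclear regulator of NF-kB, rose by 2.85 ± 0.43. Tnf and Nfkbia, a cytokine and the inhibitor of NF-kB, both its known targets and named after their values were seen, overlapped between the groups. Tnf differed by -0.04 ± 0.45 (adjusted p = 0.989) and Nfkbia by 0.13 ± 0.14 (adjusted p = 0.816). Of 18 chemokines and their receptors, Ccr1 (1.73 ± 0.29) and Cxcr4 (1.53 ± 0.37) rose, and both are receptors carried by blood leukocytes. The call for Cxcr4 ended without wild-type replicate 2 or 3 or replicate 2 or 3 labelled Trem1-/-, which left 1 call in the list. Of 22 Toll-like receptor and inflammasome genes, Tlr8, an endosomal RNA sensor, rose (2.86 ± 0.50), and the list median was 0.16.

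Surface molecules of migrating and phagocytic myeloid cells rose in part. Of 18 adhesion genes 5 rose (median 0.26). Cd44, the hyaluronan receptor, was at 342, 409 and 277 in wild type and 1227, 2242 and 2327 in the libraries labelled Trem1-/- (2.45 ± 0.36). The collagen-binding integrin Itga1 rose by 2.64 ± 0.43. The adhesion count was 3 without replicate 2 of either group and without trend and robust steps. Among 15 scavenger and Fc receptors, 3 rose, with Msr1, the macrophage scavenger receptor, at 47.6, 30.6 and 33.2 against 149.8, 278 and 329 (2.68 ± 0.37). Fcgr4 rose by 1.58 ± 0.33, a call that ended without wild-type replicate 2, and the list count was then 1. Among 12 C-type lectins, 2 rose, with Clec4e, the mycobacterial glycolipid receptor Mincle, at 25.2, 28.4 and 44.6 against 126, 289 and 272 (2.72 ± 0.39). The other, Clec4a1 (2.01 ± 0.47), lost its call without wild-type replicate 2 or 3 or replicate 2 or 3 labelled Trem1-/-. Of 15 complement genes, Cfp, the alternative pathway's properdin, rose by 3.13 ± 0.44 and the central component C3 by 2.58 ± 0.41. C3 was at 898, 643 and 402 against 3118, 3588 and 4407, and its call ended without wild-type replicate 2 or replicate 2 or 3 labelled Trem1-/-. The complement count was 1 without replicate 2 of either group, 4 in edgeR and 4 without wild-type replicate 1.

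S100 proteins, small calcium-binding proteins of which several are abundant in blood myeloid cells, rose in 4 of 7 tested (median 1.82, all 7 above 0). S100a11 was at 166, 159.6 and 193 in wild type and 693, 869 and 1074 in the libraries labelled Trem1-/- (2.32 ± 0.22, adjusted p = 4.8e-06). S100a10, the partner of annexin A2, rose by 2.57 ± 0.41 and S100a6 by 2.09 ± 0.36. S100a8, a neutrophil alarmin, was at 1125, 799 and 743 against 4716, 2522 and 2490.2 (1.82 ± 0.36), and this call ended without any 1 of the 6 libraries, with no filter on level and in a fit to the young libraries alone. The S100 count was 1 without trend and robust steps. Replicate 1 labelled Trem1-/- was the highest library for S100a8 and the lowest of its group for S100a6, S100a10 and S100a11. The actin-binding gene Tagln2 was at 334, 243 and 244 against 834, 1058 and 1137 (1.88 ± 0.19, adjusted p = 4.8e-06), and the sorting receptor Sorl1, a risk gene of Alzheimer's disease, at 2589.8, 2041 and 2158 against 5174, 6604 and 6477 (1.43 ± 0.14, adjusted p = 7.8e-06).

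Antigen presentation and disease-associated microglial genes gave few calls. Of 15 MHC class I genes, H2-D1 rose (0.56 ± 0.14), and of 11 MHC class II genes Cd74, the invariant chain, rose (1.08 ± 0.22), with list medians of 0.11 and 0.05. Both calls ended without wild-type replicate 2 or replicate 2 or 3 labelled Trem1-/-, that for H2-D1 also without wild-type replicate 3 or with no filter on level, and that for Cd74 also in a fit to the young libraries alone. Of 24 disease-associated microglial genes, 2 rose (8.33%, median 0.07). Lgals3, a galectin shared by monocytes and activated microglia, was at 171, 82 and 91.7 in wild type and 475, 751 and 1157 in the libraries labelled Trem1-/- (2.76 ± 0.29, adjusted p = 5.0e-05), and Cd52, a leukocyte surface antigen, rose by 0.96 ± 0.22, a call that ended without wild-type replicate 2 or replicate 2 or 3 labelled Trem1-/-. Apoe, named after its values were seen, overlapped between the groups (-0.26 ± 0.14, adjusted p = 0.505). Of 25 lysosomal genes, Ctsc, the protease that activates granule proteases, rose (0.62 ± 0.11), with a list median of 0.15.

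A minority of the genes of glucose use rose. Of 21 genes of glycolysis and glucose transport, 5 rose (23.8%, median 0.24). Pkm, pyruvate kinase, was at 3762, 3769 and 4189 in wild type and 6596, 5366 and 6169 in the libraries labelled Trem1-/- (0.63 ± 0.11, adjusted p = 0.0021). Gpi1, glucose phosphate isomerase, was at 1495, 1309.8 and 1496 against 2408, 2094 and 2191 (0.64 ± 0.13). The transporter gene Slc2a6 rose by 1.89 ± 0.34, and Eno1, enolase 1, by 0.55 ± 0.14, a call that ended without any 1 of the 6 libraries and in edgeR. The count was 3 without any 1 of the 6 libraries and 1 without trend and robust steps. Of 11 pentose phosphate pathway genes 3 rose, among them G6pdx and Pgd, its 2 NADPH-producing dehydrogenases (0.92 ± 0.17 and 0.59 ± 0.12), and none without trend and robust steps. The groups did not overlap for Pkm, Gpi1, G6pdx or Pgd, as for 410 of the 415 genes that passed. Cytosolic ribosomal protein genes were above 0 in 73 of 80, but only 4 passed (5.00%, median 0.25), of which Rpsa (0.70 ± 0.15) had the smallest p and lost its call without wild-type replicate 2 or 3 or replicate 2 or 3 labelled Trem1-/- and with no filter on level. The ribosomal count was 0 without replicate 2 of either group, 2 without any other library but wild-type replicate 1, and 11 in a fit to the young libraries alone. None of 13 mitochondrially encoded genes passed (median -0.01), and none of 16 circadian genes (median -0.10).

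Several of the largest rises started from wild-type libraries at or near 0. Steap4, a metalloreductase of the endosome, was at 12.1, 0 and 0.874 in wild type and 151, 180.1 and 169.6 in the libraries labelled Trem1-/- (5.85 ± 0.97, adjusted p = 0.0033), a call that ended without wild-type replicate 3. Wfdc17, a secreted protease inhibitor-like protein of myeloid cells, was at 11.2, 0 and 0.874 against 43.4, 101 and 156 (4.97 ± 0.96). Met, the receptor of hepatocyte growth factor, was at 17.7, 0 and 4.37 against 57, 84.3 and 165 (4.33 ± 0.82), and Napsa, an aspartic protease, at 28.9, 1.09 and 15.7 against 124, 224 and 226 (4.19 ± 0.80). With some wild-type libraries at or under the limit of 3 reads, the size of these differences depends on the pseudocount of 1. In each of these genes wild-type replicate 1 was the highest of its group. Vcan, described above, and Lrg1 had large rises from higher levels. Lrg1, a leucine-rich glycoprotein of neutrophils, was at 93.3, 26.2 and 15.7 against 635, 456 and 548 (3.95 ± 0.67), and its call ended without wild-type replicate 2 or replicate 2 or 3 labelled Trem1-/-.

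Of 25 homeostatic microglial genes, 2 fell (8%, against 0.224% of all genes), and 21 of 25 were below 0 at a median of -0.14. With 1 library left out the count was 0, or 1 without replicate 3 labelled Trem1-/-. P2ry12, the purinergic receptor that guides microglial processes, was at 40227, 38386 and 41330.0 in wild type and 29452, 30556 and 33750.0 in the libraries labelled Trem1-/- (-0.36 ± 0.09, adjusted p = 0.0202). Ecscr was at 2657, 2721 and 2403 against 1699.5, 1614 and 1622 (-0.65 ± 0.17, adjusted p = 0.035). Neither gene overlapped between the groups, as for 410 of the 415 genes that passed. The call for P2ry12 ended without any library except replicate 3 labelled Trem1-/- and in edgeR. That for Ecscr ended without any 1 of the 6 libraries. Tmem119 (0.02 ± 0.11, adjusted p = 0.982), Sall1 (-0.28 ± 0.10, adjusted p = 0.174), Cx3cr1 (-0.16 ± 0.08, adjusted p = 0.399) and Csf1r (-0.06 ± 0.07, adjusted p = 0.822), core microglial genes named after their values were seen, did not pass. DESeq2 called 5 of the 25, edgeR 1 and a fit to the young libraries alone 7.

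Few named genes fell, and the falls that held best were in single genes of different kinds. Srsf5, a serine and arginine rich splicing factor, was at 4764, 5338 and 5076 in wild type and 3032, 2914 and 2848 in the libraries labelled Trem1-/- (-0.79 ± 0.12, adjusted p = 6.2e-04), and it was the 1 of 20 SR splicing factors and CLK kinases that passed. Cirbp, the cold-inducible RNA-binding protein, was at 521, 646 and 474 against 315, 251 and 202 (-1.10 ± 0.25, adjusted p = 0.0122), a call that ended without wild-type replicate 2 or replicate 2 or 3 labelled Trem1-/-. Rbm3, its cold-inducible relative, named after its value was seen, differed by -0.12 ± 0.19 (adjusted p = 0.903). Apbb2, an adaptor of the amyloid precursor protein, fell from 1252, 1138 and 1356 to 644, 694 and 655 (-0.91 ± 0.17, adjusted p = 0.0033). The calcium-stimulated adenylyl cyclase Adcy8 was at 345, 164 and 328 against 67.2, 104 and 88.5 (-1.63 ± 0.36, adjusted p = 0.0115), and its call ended without wild-type replicate 1 or 3 or replicate 1 labelled Trem1-/-. The gene listed as AC126457.1 had the largest fall among the named genes, from 109, 136 and 119.7 to 29.8, 32 and 17.9 (-2.19 ± 0.43, adjusted p = 0.0045), and kept its call in all alternatives and with each of the 6 libraries left out. Gm10790 (-0.86 ± 0.14) and Whrn (-0.73 ± 0.14), named after their values were seen, also kept their calls with each of the 6 libraries left out. Both lost them without trend and robust steps.

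Markers of other cells that a brain preparation can hold gave 1 call. None passed among 9 border macrophage, 3 T and NK cell, 2 B cell, 6 red cell, 6 neuronal, 8 astrocyte, 7 oligodendrocyte, 7 endothelial and mural, and 7 choroid plexus genes tested. Among 9 dendritic cell genes Cd209a, a lectin of monocyte-derived dendritic cells, rose (3.88 ± 0.88), a call that ended without wild-type replicate 1 or replicate 2 or 3 labelled Trem1-/-. The dendritic list went both ways, with 5 differences above 0, 4 below and a median of 0.16. The choroid plexus transcript Ttr varied within both groups, at 5383, 8719 and 13193 in wild type and 13177, 5196 and 2039 in the libraries labelled Trem1-/-.

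The aged libraries were used to ask whether the same difference recurs with age. Between aged libraries labelled Trem1-/- and aged wild type, limma called 0 of 16086 genes, with 1545 at an unadjusted p under 0.05. The interaction, which tests whether the young difference departs from the aged one, passed for 408 genes (2.54%), of which 344 were more positive in young (2.14%) and 64 more negative (0.398%). The count was 5 without trend and robust steps and 769 in DESeq2. It was 248 without young wild-type replicate 2, 251 and 203 without young replicates 2 and 3 labelled Trem1-/-, 235, 790 and 197 without aged wild-type replicates 1, 2 and 3, and 221 and 251 without aged replicates 2 and 3 labelled Trem1-/-. Of the 379 genes that rose in young, 310 had an aged difference below 0, with a median of -0.30, against 51.9% of all genes tested. Of the 36 that fell, 28 had an aged difference above 0. Monocyte markers had a median of 2.86 in young and -0.57 in aged, with 6 of 14 passing the interaction toward young. For neutrophil markers the medians were 1.62 and -0.11 (5 of 16), for Ifitm genes 2.42 and -0.71 (3 of 5, of which 2 were more positive in young and Ifitm10 more negative), for p200 genes 1.99 and -0.32 (3 of 11), and for mitosis genes 1.71 and -0.09 (2 of 32). The summed monocyte level, 3837 to 8411 in young wild type, was 28348 to 57221 in aged wild type and 24329 to 30097 in the aged libraries labelled Trem1-/-. The part of these marker levels in the interaction was not tested.

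**Figure D5:**
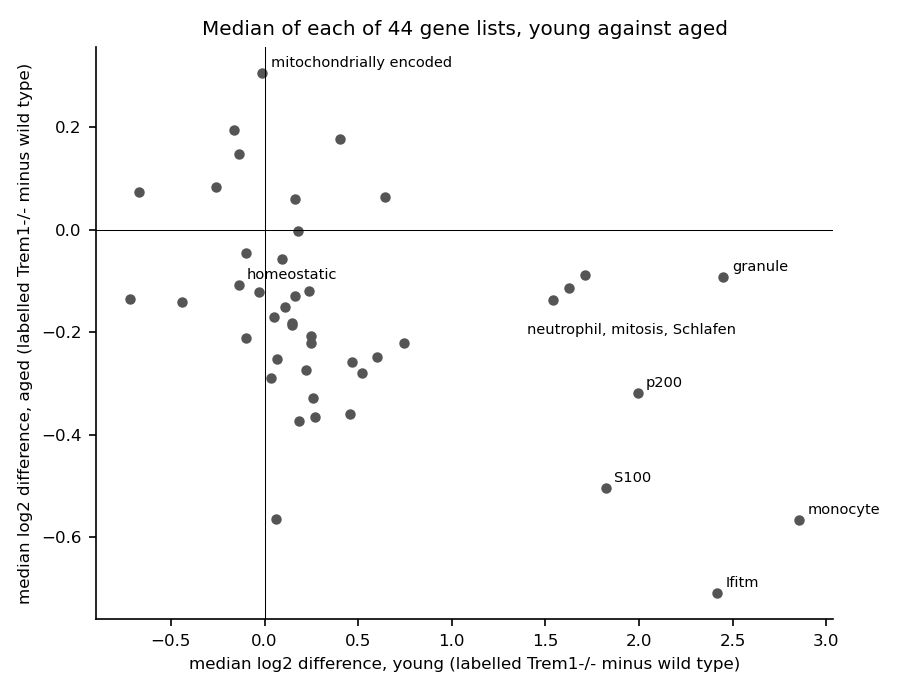
Median log2 difference (labelled Trem1-/- minus wild type) of each of 44 gene lists, in young (x axis) against aged (y axis) libraries. The lists with the largest young medians, monocyte (2.86), granule (2.45) and Ifitm (2.42), lie below 0 in aged libraries, at -0.57, -0.09 and -0.71.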

How the data were processed

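Total RNA of primary mouse brain microglia was sequenced after preparation with a NEBNext Ultra RNA kit, per the labels' protocols. Per the submitters' processing notes, the tools were fastp, HISAT2 2.0.5, featureCounts 1.5.0-p3 and DESeq2 1.20.0 with the GRCm38 build; the annotation release and the strandedness are not given in the sources used here, so reads of overlapping antisense genes cannot be told apart. The deposited per-library columns of the aging table hold a signal, read counts divided by 1 size factor per library by the authors. Each column divided by what 1 read is worth came out whole (tolerance 0.05 read) in 99.9954% or more of its values above 0; the edgeR and DESeq2 alternatives used these recovered reads. The authors' fold change and p-value columns were not used.

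Genes with a mean of at least 10 over the 12 aging libraries were tested (16086 of 54532 symbols) with limma 3.58.1 in R 4.3.3, with trend and robust options, on log2(normalized count + 1). The 4 groups shared 1 fit, and p-values were adjusted by Benjamini-Hochberg over all genes tested. A fold change is a difference of mean log2(normalized count + 1); for genes with libraries at or near 0 its size depends on the pseudocount and can exceed or fall short of the log2 ratio of the group means. The smallest p of an exact permutation test of 3 against 3 is 0.1, so none was used. Young replicates differed beyond sampling noise (chi-square over its degrees of freedom 11.9 to 18.6), which does not show whether they are separate mice. Each library was counted as 1 sample. Alternatives were edgeR 4.0.16, DESeq2 1.42.0, TMM scaling, pseudocounts of 0.5 and 5, other filters, a fold of at least 2, the 2 young groups alone, limma without trend and robust options, a replicate block and each library left out. Positions come from GENCODE M21 (53749 symbols matched), promoters from RefSeq, with chromosome 18 left out. The test was also run on simulated counts with known changes, and its outcome is not reported here. The counts were drawn independently for each gene and library. Shifts shared by many genes of a library were therefore not covered.

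The members and the 44 gene lists (726 genes) were chosen with earlier results of these data known. The text names Trem1 and, by size of change, 12 rises and 10 falls among genes that passed without overlap and with a mean of at least 50 in the higher group, up to 4 called members of each list by smallest p (or the most abundant member where none was called), called genes within 5 Mb of Trem1 and the 5 smallest p of the interaction. Most other genes are marked in the text as named after their values were seen. Trem2, Trem3, Treml2, Treml4, B430306N03Rik, Tyrobp, Ddx3y, Cd3e, Cd3g, Trac, Trbc2 and Ifitm10 lie outside this rule without that mark. So do some genes of the promoter passages. Some genes that the rule names are not reported here.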

Additional observations from a re-analysis of the deposited data

Results flagged for a closer look

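The difference between libraries labelled Trem1-/- and wild type was not the same in young and aged mice for 408 genes, by the interaction term of the limma fit (adjusted p under 0.05). Trem1 is one of them: its interaction was 3.40 ± 0.64 (adjusted p = 0.0043), from 2.85 in young and -0.55 in aged libraries. The 5 other genes were chosen by the smallest p of the interaction. Ifitm2 had 4.21 ± 0.49 (adjusted p = 5.7e-05), S100a11 2.85 ± 0.31 (adjusted p = 5.7e-05), Tagln2 2.41 ± 0.27 (adjusted p = 5.7e-05), Sorl1 1.83 ± 0.20 (adjusted p = 5.7e-05) and Slfn2 1.75 ± 0.21 (adjusted p = 7.0e-05). Each is a log2 value, the young difference minus the aged one, with its SE. All 6 were higher in young libraries labelled Trem1-/- without overlap, as were 11.3% of all genes tested. Their aged differences were -0.55, -0.83, -0.53, -0.53, -0.40 and -0.21 in the order given here. For the 5 chosen by the interaction, that choice favours young and aged differences that lie far apart, so these values add no separate support. The summed monocyte and neutrophil markers lie apart between the 2 young groups and overlap between the 2 aged groups. Their part in these values was not tested.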

How the results depend on the processing

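The count of 415 genes in young libraries was 649 in a fit to the 2 young groups alone, 648 in DESeq2 on recovered reads and 97 in limma without trend and robust steps. With each library left out in turn it ranged from 223 to 424. It stayed within 1.5 times of 415 in edgeR (424), with TMM scaling (403), with a fold of at least 2 (294), and under the other pseudocounts and filters. The interaction count of 408 was 769 in DESeq2 and 5 without trend and robust steps, and ranged from 197 to 790 with 1 library left out. The 4 genes within 5 Mb of Trem1 became 8 of 160 within 10 Mb, 7 in DESeq2, 2 without trend and robust steps and 2 to 4 with 1 library left out. The cause of these shifts was not tested. The Trem1 difference kept its direction and its call in every alternative run. Of 105 other named calls, TMM scaling and a pseudocount of 5 kept 105, DESeq2 103, edgeR 95 and limma without trend and robust steps 33; no value changed sign.

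The labels give replicate numbers, but same-numbered libraries did not deviate together: residual correlations between the young groups were -0.14, 0.00 and -0.06, and 0 of 6 young libraries was closest to the library of its own number. With a replicate block the young count was 490, the interaction count 557, the Trem1 difference 2.85 and the count near Trem1 4. The block kept 99 of the 105 named calls. Depth limits genes under 2.55 to 3.28 normalized counts, the worth of 3 reads in the young libraries.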

Other observations

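Gene families outside the lists, chosen after their values were seen, showed further rises in the young libraries labelled Trem1-/-. Of 9 tested annexins, calcium-dependent membrane-binding proteins, 5 rose (55.6%, against 2.36% of all genes tested, median 0.73). Of these, Anxa1, Anxa5, Anxa7 and Anxa11 lost their calls without trend and robust steps. Anxa2, the partner of S100a10, was at 274, 293 and 162 in wild type and 1025, 1468 and 1914 in the libraries labelled Trem1-/- (2.59 ± 0.38, adjusted p = 0.0056). The annexin count was 1 to 4 with 1 library left out: 3 and 2 without wild-type replicates 1 and 2, 4 without replicate 3, and 2, 2 and 1 without replicates 1, 2 and 3 labelled Trem1-/-. Of 8 CD300 receptors, which pair activating and inhibitory lipid recognition on myeloid cells, 4 rose (50%, against 2.36% of all genes tested, median 1.94). Cd300lf rose by 2.15 ± 0.31 and Cd300ld by 1.92 ± 0.32. Without trend and robust steps the calls for Cd300ld, Cd300lb and Cd300e ended. The count was 2 without replicate 2 or 3 of either group. Both tested formyl peptide receptors, which guide phagocytes to bacterial peptides, rose, Fpr2 from 29.9, 17.5 and 24.5 to 174, 113 and 151 (2.57 ± 0.35) and Fpr1 by 2.04 ± 0.41, with each of the 6 libraries left out. The call for Fpr1 ended without trend and robust steps.

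Of 54 replication-dependent histone genes, whose transcripts peak in S phase, 7 rose (13%, against 2.36% of all genes tested). That count was 1 without replicate 1 labelled Trem1-/-, 2 without wild-type replicate 3, and 3 without replicate 2 of either group or replicate 3 labelled Trem1-/-. Of the 7 histone calls, only those for Hist1h2bf and Hist1h2bj remained without trend and robust steps. Of 9 calpains, calcium-dependent proteases, Capn1 (1.37 ± 0.28) and Capn2 (1.35 ± 0.34) rose (22.2%, against 2.36% of all genes tested). The calpain count was 0 without wild-type replicate 2 and 1 without wild-type replicate 1 or 3 or replicate 2 or 3 labelled Trem1-/-. Both calls ended without trend and robust steps, and that for Capn2 also with TMM scaling or a replicate block.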
